A study of Mus musculus with 15 samples.

Results

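The genes described here are 45 genes of the cell cycle and of DNA replication, picked by symbol from a table of 17712 genes measured in 15 mouse tumours. All 45 had a row in that table, so no member was lost to the authors' filter on low values. They comprise 20 genes of the G1/S transition and S phase, 24 genes of G2 and mitosis, and Cdkn1a, which encodes the cyclin-dependent kinase inhibitor p21. The tumours were grown from MC38, a mouse colon carcinoma line, implanted under the skin of C57BL/6 mice. When they measured about 5 mm they received 1 injection of 100 µL into the tumour, and RNA was taken 24 h later. Vehicle (PBS with 5% DMSO and 5% glucose) went into 3 tumours. Another 4 received 50 µg of BO-112, which is poly I:C, a synthetic double-stranded RNA, packed with polyethylenimine. DMXAA, a small molecule that activates mouse STING, was given to 4 at 100 µg, and 4 received both agents at those amounts. A single implanted line was used, and each sample is a whole tumour with the host cells in it. The sources used here do not give the sex or age of the mice.

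Cells commit to division when cyclin D and cyclin E kinases release E2F factors, which switch on the genes for DNA replication. Genes for mitosis come on later, through the MMB complex and FOXM1, and the DREAM complex keeps them low before that. These act at CHR elements near the start sites. CCAAT elements, which other factors bind, are often found close by. The inhibitor p21 is a target of p53 and blocks cyclin-dependent kinases, and through the retinoblastoma family it keeps both sets of genes low. In a growing tumour these genes mostly report on how many cells are dividing. In bulk tumour RNA, fewer dividing cells and less RNA per dividing cell cannot be told apart.

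Promoters were read for 36 of the 45 members, in 39 windows of 300 bases that run from 250 bases before to 50 bases after a start site (RefSeq, GRCm38.p6). Each window was searched on both strands for the CHR element (TTTGAA or TTCGAA), for CCAAT, and for E2F elements (TTTCCCGC, TTTCGCGC, TTTGCCGC or TTTGGCGC). Matches were allowed to overlap. The CHR element was found in 14 of 18 G2/M windows and in 3 of 19 S phase windows, against 19.2% of all 32851 promoter windows. CCAAT was found in 16 G2/M and 14 S phase windows, against 37.4% of all. Both elements stood together in 14 G2/M windows, against 7.53% of all. An E2F element was found in 8 S phase windows and 1 G2/M window, against 2.27% of all. Neither Cdkn1a window held any of these letters. A match describes the letters only and shows no binding.

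The windows below show, for each phase, the 3 members with the smallest adjusted p for BO-112 against vehicle among those with a promoter entry, with matches in capitals. Plk1 and Kif23 each have a CCAAT and a CHR element close to the start, whereas Nusap1 has neither. Mcm5 has a pair of overlapping E2F matches, 153 and 149 bases before the start, and Rrm2 a single CCAAT. Tyms has no match. Ccnb2 and Mcm6 were added after their matches had been seen, because they show the repeated forms: 3 CCAAT and 2 CHR matches in Ccnb2, and 3 E2F matches in Mcm6. The Cdkn1a window is that of the second of its start sites.
Plk1 promoter, chr7:122159185-122159484, plus strand: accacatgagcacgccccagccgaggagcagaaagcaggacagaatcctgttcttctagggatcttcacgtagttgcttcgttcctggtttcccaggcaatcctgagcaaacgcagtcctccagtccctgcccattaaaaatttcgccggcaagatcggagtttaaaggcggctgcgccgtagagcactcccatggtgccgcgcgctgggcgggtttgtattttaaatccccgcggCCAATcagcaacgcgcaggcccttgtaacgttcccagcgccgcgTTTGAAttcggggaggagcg
Kif23 promoter, chr9:61946750-61947049, minus strand: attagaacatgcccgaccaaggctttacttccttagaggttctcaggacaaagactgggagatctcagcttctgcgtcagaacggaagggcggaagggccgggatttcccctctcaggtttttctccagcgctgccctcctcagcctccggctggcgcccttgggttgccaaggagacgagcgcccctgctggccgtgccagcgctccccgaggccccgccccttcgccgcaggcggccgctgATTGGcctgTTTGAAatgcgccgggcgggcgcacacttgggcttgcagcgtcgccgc
Nusap1 promoter, chr2:119618048-119618347, plus strand: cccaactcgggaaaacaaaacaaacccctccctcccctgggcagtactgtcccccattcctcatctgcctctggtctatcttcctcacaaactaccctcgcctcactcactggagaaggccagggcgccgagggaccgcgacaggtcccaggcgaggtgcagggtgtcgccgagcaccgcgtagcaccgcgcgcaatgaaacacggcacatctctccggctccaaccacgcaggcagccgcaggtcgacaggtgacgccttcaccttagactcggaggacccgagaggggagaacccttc
Ccnb2 promoter, chr9:70421505-70421804, minus strand: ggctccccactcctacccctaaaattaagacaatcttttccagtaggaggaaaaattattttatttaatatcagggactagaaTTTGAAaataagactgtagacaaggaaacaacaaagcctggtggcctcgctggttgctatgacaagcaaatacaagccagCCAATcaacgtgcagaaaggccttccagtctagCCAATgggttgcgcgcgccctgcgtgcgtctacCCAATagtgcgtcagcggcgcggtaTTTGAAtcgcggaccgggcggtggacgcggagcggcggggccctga
Mcm5 promoter, chr8:75109259-75109558, plus strand: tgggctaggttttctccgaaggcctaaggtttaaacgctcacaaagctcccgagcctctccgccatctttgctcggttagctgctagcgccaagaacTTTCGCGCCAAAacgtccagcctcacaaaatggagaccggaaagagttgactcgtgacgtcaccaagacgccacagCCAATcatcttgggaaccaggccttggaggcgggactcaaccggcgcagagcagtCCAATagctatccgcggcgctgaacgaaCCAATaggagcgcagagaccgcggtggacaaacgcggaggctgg
Tyms promoter, chr5:30073576-30073875, minus strand: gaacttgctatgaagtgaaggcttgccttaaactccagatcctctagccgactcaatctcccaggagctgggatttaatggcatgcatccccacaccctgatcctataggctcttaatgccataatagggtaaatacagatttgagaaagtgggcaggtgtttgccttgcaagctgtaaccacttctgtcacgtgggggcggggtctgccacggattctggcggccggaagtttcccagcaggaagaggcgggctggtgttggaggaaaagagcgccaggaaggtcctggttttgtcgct
Rrm2 promoter, chr12:24708004-24708303, plus strand: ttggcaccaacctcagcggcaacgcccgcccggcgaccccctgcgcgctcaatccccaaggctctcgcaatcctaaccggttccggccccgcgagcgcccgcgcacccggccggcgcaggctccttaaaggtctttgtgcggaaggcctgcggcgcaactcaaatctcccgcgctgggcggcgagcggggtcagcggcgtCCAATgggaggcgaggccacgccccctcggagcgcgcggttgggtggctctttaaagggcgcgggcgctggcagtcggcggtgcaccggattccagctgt
Mcm6 promoter, chr1:128359656-128359955, minus strand: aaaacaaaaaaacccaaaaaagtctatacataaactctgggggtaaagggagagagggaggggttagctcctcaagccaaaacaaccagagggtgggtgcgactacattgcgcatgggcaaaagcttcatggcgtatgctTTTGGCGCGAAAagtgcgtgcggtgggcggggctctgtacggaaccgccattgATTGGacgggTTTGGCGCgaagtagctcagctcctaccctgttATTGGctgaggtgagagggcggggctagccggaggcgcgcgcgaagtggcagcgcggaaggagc
Cdkn1a promoter, chr17:29093519-29093818, plus strand: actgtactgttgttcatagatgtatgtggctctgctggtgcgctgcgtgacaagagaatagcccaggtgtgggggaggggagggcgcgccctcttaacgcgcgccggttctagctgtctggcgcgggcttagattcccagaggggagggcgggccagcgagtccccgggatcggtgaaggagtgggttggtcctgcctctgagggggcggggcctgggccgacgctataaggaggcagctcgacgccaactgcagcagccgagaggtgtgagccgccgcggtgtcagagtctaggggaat

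The libraries held 12725316 to 19660511 reads in the table, and levels are given as CPM, reads scaled to the size of each library with the authors' scaling factors. Tests used limma over all 17712 genes, with Benjamini-Hochberg adjustment and a threshold of 0.05. Their p-values set each difference between groups against the spread between these tumours within groups, which all groups share in the fit. That spread was unequal: genes above 4 log2 CPM had a median SD of 0.31 with DMXAA and 0.10 with BO-112. Of 12 epithelial markers 5 were analysed, and Epcam, which marks most carcinoma cells, reached at most 2.70 CPM, so this defining marker was close to absent. Cdh1, E-cadherin, stood at 25.7, 27.4 and 82.6 CPM with vehicle and 9.13, 8.38, 11.2 and 4.94 with BO-112, and lay between 9.15 and 39.1 in the other tumours. With BO-112 Cdh1 (-2.26 ± 0.49, adjusted p = 0.00678) and Epcam (-3.10 ± 0.84, adjusted p = 0.0251) fell and Krt20, at most 0.861 CPM, rose, and none of the 5 was called with DMXAA or both agents against vehicle. Muscle genes were uneven: the sum of 14 markers ran from 6.69 to 185 CPM across vehicle tumours, 2.79 to 593 across BO-112, 8.75 to 982 across DMXAA and 2.82 to 8.61 where both agents were given, highest in vehicle 2, BO-112 1, DMXAA 1 and DMXAA 3. The sum of 10 neutrophil markers lay at 34.8 to 59.4 CPM in vehicle tumours, 189 to 268 after BO-112, 66.8 to 253 after DMXAA and 124 to 387 after both, with Ly6g at 0.72 CPM or less. Of these 10 neutrophil markers 5 rose with BO-112, 3 with DMXAA and 6 with both agents. Over all genes 7.64% rose and 4.31% fell with BO-112, 1.25% were called in either direction with DMXAA and 2.49% rose with both agents. Over 10 macrophage markers, 1 rose and 2 fell with BO-112, too few to read. Of 10 markers each, 1 endothelial and 1 fibroblast marker rose with BO-112 and 0 T cell markers were called. Against DMXAA, 4 T cell markers were lower with BO-112 and 0 higher, beside 10.2% of all genes lower. The part of these cells in the results on the members was not tested.

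Genes of both phases fell after BO-112, and Cdkn1a rose. The 3 comparisons against vehicle share the same 3 vehicle tumours. Against vehicle, 7 of 20 S phase members and 13 of 24 G2/M members fell, with a background of 4.31% of all genes that fell. Cdkn1a rose, where 7.64% of all genes did. The median log2 fold change was -0.37 over the S phase members and -0.57 over the G2/M members, beside -0.04 over all genes. All 4 BO-112 tumours lay below all 3 vehicle tumours for 17 S phase and 23 G2/M members, against 16.8% of all genes. The members whose ranges overlapped were Mcm6, Pola1 and Foxm1, and Ccne1 lay above vehicle in all 4 tumours. The sign of all 45 changes was the same in each of 25 other analyses. The fold changes are fixed in those that left out only DMXAA or both-agent tumours, filtered genes or fitted the 2 groups alone. The sign could not change there. The count of calls was not stable. It was 4 without vehicle 1, 4 without vehicle 2, 7 without vehicle 3, 9 without BO-112 1, 7 without BO-112 2, 5 without BO-112 4 and 2 without the 4 muscle-rich tumours, and 34 without DMXAA 2 and 3, 35 with scaling by total count, 38 with library weights and 41 when only the 2 groups compared were fitted. Calls over all genes moved as well: 763 fell in the fit reported above, 243 without the muscle-rich tumours and 341 without vehicle 3. Lower genes numbered 1807 with scaling by total count, 2336 with library weights and 1861 with the 2 groups alone. Plk1, Kif23, Aurkb and Cdkn1a were called whichever single tumour was left out.

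**Figure D1:**
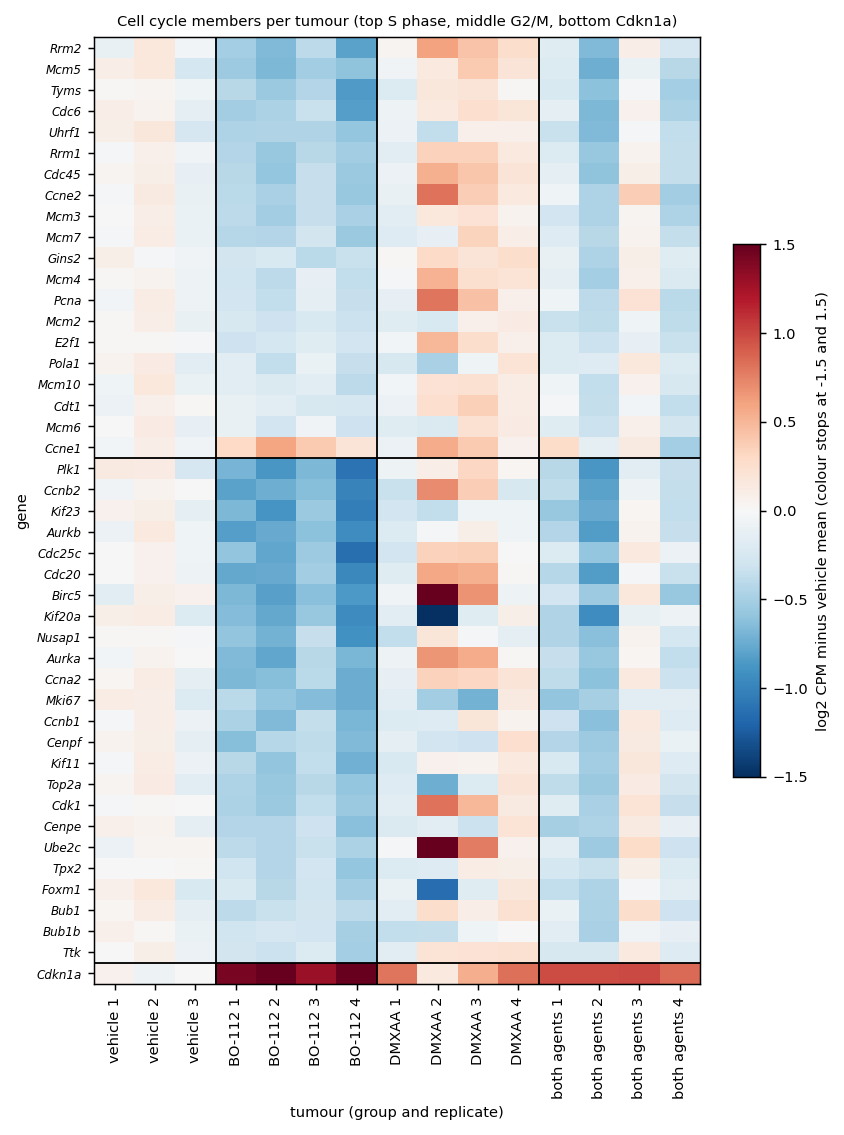
Each row is a member and each column a tumour; colour gives log2 CPM minus the vehicle mean of that gene. The 4 BO-112 columns are low for most S phase and G2/M genes and highest for Cdkn1a, DMXAA 2 departs in both directions, and among the tumours given both agents number 2 is low and number 3 is close to vehicle.

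Among the S phase members, 3 of 3 enzymes that make DNA precursors were called lower with BO-112, where 4.31% of all genes fell. These calls were lost without vehicle 1, without vehicle 2, without BO-112 2 and without the 4 muscle-rich tumours. Rrm2, the regulated subunit of ribonucleotide reductase, stood at 141, 170.3 and 148 CPM with vehicle, 108, 96.6, 117 and 87.5 with BO-112, 157, 231, 205 and 183 with DMXAA and 134, 96.4, 164 and 128 with both agents. Rrm1, its large catalytic subunit, stood at 189, 204 and 186 CPM with vehicle, 143, 130.0, 144 and 135 with BO-112, 172, 245, 245 and 213 with DMXAA and 167, 129.8, 200.0 and 150.3 with both agents. Tyms, thymidylate synthase, stood at 40.0, 40.5 and 37.7 CPM with vehicle, 29.6, 26.7, 29.2 and 21.9 with BO-112, 34.3, 44.3, 45.2 and 39.7 with DMXAA and 33.6, 25.8, 38.6 and 27.7 with both agents. For each of the 3 the BO-112 tumours lay below every vehicle and every DMXAA tumour, and the tumours given both agents ran from near the BO-112 level in number 2 to the vehicle level in number 3. Against vehicle the log2 fold changes with BO-112 were -0.59 ± 0.17, adjusted p = 0.0354 for Rrm2, -0.48 ± 0.15, adjusted p = 0.0416 for Rrm1, and -0.56 ± 0.15, adjusted p = 0.0255 for Tyms.

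The MCM2-7 complex is the core of the helicase that unwinds DNA at the fork, and 2 of its 6 genes were called. Mcm5 stood at 150.1, 156 and 117 CPM with vehicle, 96.3, 87.4, 97.8 and 92.2 with BO-112, 134, 155, 184 and 160.0 with DMXAA and 122, 84.2, 131 and 105 with both agents. Mcm3 stood at 166, 179 and 156 CPM with vehicle, 128, 116, 132 and 119 with BO-112, 149.7, 186, 194 and 174 with DMXAA and 137, 121, 171 and 121 with both agents. With BO-112 both fell, every tumour lying below the vehicle range, with log2 fold changes of -0.58 ± 0.15 for Mcm5 (adjusted p = 0.0203) and -0.44 ± 0.13 for Mcm3 (adjusted p = 0.0384). Mcm7 stood at 189.7, 208 and 179 CPM with vehicle, 143, 142, 159 and 131 with BO-112, 168, 176, 243 and 205 with DMXAA and 168, 143, 199.5 and 149.5 with both agents, and Mcm4 at 144, 147 and 135 CPM with vehicle, 115, 108, 131 and 109 with BO-112, 139, 203, 167 and 164 with DMXAA and 128, 100, 150.0 and 122 with both agents. Mcm2 stood at 177, 188 and 163 CPM with vehicle, 149, 141, 150.2 and 141 with BO-112, 156, 149.7, 186 and 191 with DMXAA and 139, 136, 168 and 135 with both agents, and Mcm6 at 206, 224 and 189.9 CPM with vehicle, 191, 169, 199 and 166 with BO-112, 181, 177, 242 and 225 with DMXAA and 182, 165, 217 and 169.9 with both agents. For Mcm7, Mcm4 and Mcm2 the BO-112 tumours also lay below vehicle, but adjusted p was 0.0656, 0.202 and 0.131. Mcm6 overlapped with vehicle, with BO-112 1 and 3 above vehicle 3 (log2 fold change -0.19 ± 0.13, adjusted p = 0.407). Per kilobase of transcript the mean levels of the 6 genes ran from 39.5 to 64.9 CPM in vehicle tumours and from 27.6 to 48.5 after BO-112.

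Of the 5 genes that license and fire origins, 1 was called. Cdc6, which loads the helicase with CDT1, stood at 41.4, 40.3 and 34.9 CPM with vehicle, 27.0, 27.8, 30.8 and 21.9 with BO-112, 36.8, 42.8, 46.2 and 43.8 with DMXAA and 35.3, 24.2, 40.7 and 27.9 with both agents, a log2 fold change with BO-112 of -0.54 ± 0.17, adjusted p = 0.0480. Cdc45, a helicase cofactor, stood at 56.1, 57.7 and 49.8 CPM with vehicle, 40.9, 36.5, 42.9 and 37.0 with BO-112, 51.3, 79.1, 72.5 and 62.5 with DMXAA and 49.7, 35.8, 58.0 and 42.7 with both agents. Gins2, of the GINS complex, stood at 20.6, 19.0 and 18.7 CPM with vehicle, 16.1, 16.6, 14.7 and 15.4 with BO-112, 19.7, 23.7, 22.1 and 23.3 with DMXAA and 17.9, 14.2, 20.7 and 17.1 with both agents. The BO-112 tumours lay below vehicle for all 5, and adjusted p was 0.0768 for Cdc45 and 0.135 for Gins2. Cdt1 stood at 58.7, 66.1 and 63.2 CPM with vehicle, 58.2, 55.6, 52.8 and 52.6 with BO-112, 58.7, 74.4, 79.9 and 67.6 with DMXAA and 61.7, 49.0, 60.8 and 48.5 with both agents. Mcm10, which helps to activate the helicase, stood at 46.4, 53.8 and 45.2 CPM with vehicle, 43.4, 41.5, 43.0 and 36.9 with BO-112, 46.9, 56.0, 56.6 and 52.3 with DMXAA and 46.3, 37.4, 50.6 and 40.9 with both agents. These 2 showed the smallest differences from vehicle in the group, -0.19 and -0.23, neither called.

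Uhrf1, which brings the maintenance methyltransferase to newly made DNA, stood at 162, 172 and 128 CPM with vehicle, 111, 111, 112 and 102 with BO-112, 144, 118, 161 and 161 with DMXAA and 121, 96.8, 149.7 and 118 with both agents. The BO-112 tumours lay within a narrow band below vehicle (-0.49 ± 0.15, adjusted p = 0.0464). At the fork, Pcna, the sliding clamp, stood at 214, 236 and 208 CPM with vehicle, 179, 169.6, 198 and 173 with BO-112, 202, 383, 298 and 230.3 with DMXAA and 209, 167, 254 and 166 with both agents, and Pola1, the catalytic subunit of the primase-polymerase, at 65.1, 68.4 and 56.1 CPM with vehicle, 56.6, 48.8, 58.9 and 49.3 with BO-112, 53.2, 44.9, 60.5 and 72.9 with DMXAA and 54.7, 54.9, 70.5 and 54.7 with both agents. Neither was called with BO-112, at -0.29 ± 0.19 and -0.24 ± 0.15. Pcna lay below vehicle in all 4 tumours, whereas Pola1 overlapped.

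The G1/S cyclins did not move together. Ccne1, cyclin E1, stood at 29.4, 32.4 and 29.1 CPM with vehicle, 37.1, 45.6, 39.8 and 34.7 with BO-112, 28.5, 44.6, 39.7 and 31.7 with DMXAA and 36.6, 27.5, 33.2 and 21.2 with both agents. Ccne2, cyclin E2, stood at 23.7, 26.1 and 22.0 CPM with vehicle, 18.1, 17.0, 18.8 and 16.0 with BO-112, 22.1, 41.8, 30.7 and 26.4 with DMXAA and 22.9, 17.3, 30.9 and 16.7 with both agents. E2f1, the activating E2F, stood at 71.4, 71.4 and 68.9 CPM with vehicle, 56.9, 58.7, 62.4 and 57.8 with BO-112, 68.7, 99.3, 84.6 and 74.6 with DMXAA and 61.2, 56.6, 64.5 and 56.0 with both agents. Ccne1 was the one S phase member above vehicle in all 4 BO-112 tumours, at 0.37 ± 0.19, adjusted p = 0.226, while Ccne2 (-0.45 ± 0.22) and E2f1 (-0.26 ± 0.11) lay below vehicle. None of the 3 was called, and the difference between the 2 cyclins was not tested.

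Of the G2/M members, 4 of the 5 cyclin, kinase and phosphatase genes that start mitosis fell. Ccnb2, cyclin B2, stood at 52.5, 56.7 and 54.8 CPM with vehicle, 31.4, 33.0, 35.2 and 27.3 with BO-112, 43.2, 89.5, 70.8 and 46.2 with DMXAA and 42.1, 31.4, 51.6 and 42.5 with both agents. Ccna2, cyclin A2, stood at 147, 155 and 132 CPM with vehicle, 90.6, 92.8, 109 and 86.5 with BO-112, 133, 184, 179.6 and 165 with DMXAA and 111, 94.6, 160.0 and 115 with both agents. Cdc25c, the phosphatase that activates CDK1, stood at 19.3, 20.2 and 18.6 CPM with vehicle, 12.9, 11.3, 13.3 and 8.84 with BO-112, 15.9, 24.6, 24.8 and 19.3 with DMXAA and 16.8, 13.0, 21.5 and 18.2 with both agents. The BO-112 tumours lay below vehicle and below DMXAA for each, with BO-112 4 lowest. Log2 fold changes against vehicle were -0.79 ± 0.22, adjusted p = 0.0295 for Ccnb2, -0.61 ± 0.16, adjusted p = 0.0214 for Ccna2 and -0.76 ± 0.20, adjusted p = 0.0187 for Cdc25c. Ccnb1, cyclin B1, stood at 116, 125 and 110.0 CPM with vehicle, 83.8, 73.7, 91.4 and 72.5 with BO-112, 101, 102, 132 and 121 with DMXAA and 94.2, 75.9, 129 and 103 with both agents, a change of -0.55 ± 0.16, adjusted p = 0.0345. Cdk1, the mitotic kinase itself, stood at 173, 178 and 178 CPM with vehicle, 127, 119.6, 137 and 119.7 with BO-112, 157, 310.1, 249.9 and 195 with DMXAA and 156, 126, 204 and 139 with both agents. It lay below vehicle in all 4 tumours without passing the test (-0.49 ± 0.20, adjusted p = 0.121), and its DMXAA tumours ran from below to far above vehicle.

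Of the 6 mitotic and checkpoint kinases 3 fell. Plk1, which drives mitotic entry and spindle assembly, stood at 78.4, 77.2 and 59.5 CPM with vehicle, 43.7, 38.9, 44.6 and 33.0 with BO-112, 67.8, 76.3, 88.2 and 72.4 with DMXAA and 53.2, 38.8, 64.0 and 56.1 with both agents. Aurkb, the kinase of the chromosomal passenger complex, stood at 67.8, 80.0 and 69.2 CPM with vehicle, 40.7, 42.6, 47.1 and 37.9 with BO-112, 62.8, 71.3, 76.9 and 68.9 with DMXAA and 53.1, 40.2, 75.1 and 56.7 with both agents. Aurka, the centrosome kinase, stood at 63.1, 67.1 and 64.6 CPM with vehicle, 41.0, 37.8, 48.7 and 40.4 with BO-112, 61.8, 103, 95.6 and 65.9 with DMXAA and 51.1, 43.8, 66.4 and 50.1 with both agents. With BO-112 all 4 tumours lay below all vehicle and all DMXAA tumours for these 3 genes. The log2 fold change was -0.84 ± 0.17, adjusted p = 0.00371 for Plk1, -0.78 ± 0.16, adjusted p = 0.00505 for Aurkb and -0.64 ± 0.18, adjusted p = 0.0308 for Aurka. None of the 3 spindle checkpoint kinases passed the test. Bub1 stood at 73.3, 77.6 and 65.9 CPM with vehicle, 54.9, 57.3, 59.5 and 55.2 with BO-112, 64.7, 86.7, 77.5 and 84.8 with DMXAA and 67.3, 52.0, 86.7 and 58.3 with both agents. Bub1b, which encodes BUBR1, stood at 149, 144 and 133 CPM with vehicle, 115, 119, 116 and 101 with BO-112, 109.9, 111, 136 and 142 with DMXAA and 128, 102, 137 and 130.4 with both agents. Ttk, which encodes MPS1, stood at 25.9, 27.7 and 24.5 CPM with vehicle, 21.5, 20.8, 22.6 and 18.3 with BO-112, 23.4, 30.1, 30.2 and 30.5 with DMXAA and 22.1, 22.1, 28.9 and 22.8 with both agents. All 3 lay below vehicle in the BO-112 tumours, with log2 fold changes of -0.35, -0.33 and -0.33, and none was called.

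Of 5 genes for spindle motors and assembly 4 fell. Kif23, a motor of the central spindle needed for cytokinesis, stood at 83.8, 85.0 and 72.1 CPM with vehicle, 50.4, 43.4, 54.6 and 38.9 with BO-112, 65.9, 62.2, 76.5 and 76.9 with DMXAA and 53.8, 47.6, 81.5 and 62.0 with both agents. Nusap1, a microtubule-binding spindle protein, stood at 73.2, 73.5 and 71.1 CPM with vehicle, 48.3, 44.5, 56.9 and 38.7 with BO-112, 56.0, 82.1, 71.5 and 65.7 with DMXAA and 53.2, 47.1, 75.0 and 60.3 with both agents. Kif11, the motor that separates the poles, stood at 166, 182 and 158 CPM with vehicle, 126, 111, 130.3 and 102 with BO-112, 144, 177, 174 and 187 with DMXAA and 143, 117, 189 and 148 with both agents. In each, BO-112 4 was lowest and no BO-112 tumour reached vehicle, with log2 fold changes of -0.79 ± 0.17, adjusted p = 0.00599 for Kif23, -0.64 ± 0.17, adjusted p = 0.0205 for Nusap1 and -0.53 ± 0.15, adjusted p = 0.0299 for Kif11. Tpx2, which activates Aurora A on the spindle, stood at 169, 169 and 171 CPM with vehicle, 138, 125, 139 and 113 with BO-112, 147, 149, 184 and 181 with DMXAA and 141, 134, 179.7 and 146 with both agents, a change of -0.40 ± 0.12, adjusted p = 0.0462. Kif20a, another motor of the central spindle, stood at 71.6, 73.1 and 58.5 CPM with vehicle, 43.0, 39.8, 45.5 and 35.2 with BO-112, 60.4, 14.9, 59.5 and 71.5 with DMXAA and 49.3, 35.5, 62.2 and 63.7 with both agents. DMXAA 2 was far below every other tumour for Kif20a, and the change with BO-112 was -0.73 ± 0.40, adjusted p = 0.271. That tumour enters the test of BO-112 through the spread, which the fit shares between groups.

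For chromosome and kinetochore genes 1 of 5 was called. Mki67, the proliferation antigen Ki-67, stood at 351, 347 and 282 CPM with vehicle, 245, 217, 207 and 194 with BO-112, 289.6, 226, 199 and 358 with DMXAA and 215, 229.9, 292 and 290.4 with both agents, a change of -0.60 ± 0.18, adjusted p = 0.0458. Top2a, topoisomerase II alpha, stood at 621, 656 and 535 CPM with vehicle, 436, 406, 451 and 402 with BO-112, 525, 361, 522 and 690.4 with DMXAA and 463, 411, 654 and 498 with both agents. Birc5, survivin, stood at 87.1, 104 and 101 CPM with vehicle, 60.7, 55.3, 62.7 and 53.3 with BO-112, 93.9, 351, 154 and 92.0 with DMXAA and 79.2, 66.5, 109 and 65.3 with both agents. All 4 BO-112 tumours lay below vehicle for these, at -0.51 ± 0.19 for Top2a and -0.75 ± 0.34 for Birc5, and adjusted p was 0.0977 and 0.181. Cenpe, a kinetochore motor, stood at 133, 129.9 and 115 CPM with vehicle, 93.0, 92.3, 101 and 81.6 with BO-112, 108, 111, 101 and 145 with DMXAA and 88.9, 91.3, 138 and 115 with both agents. Cenpf, a kinetochore protein, stood at 106, 108 and 92.6 CPM with vehicle, 65.2, 75.6, 78.3 and 64.3 with BO-112, 92.1, 83.1, 81.8 and 121 with DMXAA and 74.8, 69.7, 112 and 94.8 with both agents. Both lay below vehicle with BO-112, and Cenpf came close to the threshold (-0.53 ± 0.17, adjusted p = 0.0547).

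Cdc20, the activator of the anaphase-promoting complex, stood at 107, 111 and 101 CPM with vehicle, 62.4, 62.8, 73.9 and 54.2 with BO-112, 93.5, 158, 153 and 108 with DMXAA and 78.8, 59.2, 105 and 84.1 with both agents. It fell with BO-112 (-0.75 ± 0.20, adjusted p = 0.0221). Ube2c, the E2 enzyme of that complex, stood at 124, 136 and 135 CPM with vehicle, 99.9, 96.8, 104 and 94.5 with BO-112, 130.1, 384, 223 and 137 with DMXAA and 118, 90.3, 159 and 106 with both agents, with DMXAA 2 and 3 far above all others and a change with BO-112 of -0.41 ± 0.29, adjusted p = 0.404. Foxm1, the factor that drives many mitotic genes, stood at 175, 186 and 142 CPM with vehicle, 142, 125, 136 and 116 with BO-112, 156, 75.6, 147 and 188 with DMXAA and 129, 120.3, 164 and 149 with both agents. Its BO-112 tumours overlapped with vehicle because BO-112 1 exceeded vehicle 3, and DMXAA 2 was lowest.

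Cdkn1a moved the other way. It stood at 71.7, 64.9 and 68.6 CPM with vehicle, 183, 198, 168 and 195 with BO-112, 119, 75.4, 99.7 and 121 with DMXAA and 135, 134, 135 and 123 with both agents. The order of the groups was vehicle, DMXAA, both agents, BO-112, and the ranges of neighbouring groups did not overlap. Of all 17712 genes, 1154 lay wholly higher with DMXAA than with vehicle. With both agents 804 lay wholly above DMXAA and 1083 wholly below BO-112. No step between neighbouring groups passed the test for Cdkn1a. The DMXAA tumours all lay just above vehicle or higher, with DMXAA 2 nearest to it. Log2 fold changes against vehicle were 1.44 ± 0.14, adjusted p = 7.88e-06 for BO-112, 0.58 ± 0.14, adjusted p = 0.0554 for DMXAA and 0.95 ± 0.14, adjusted p = 0.00110 for both agents. Between treatments it was 0.86 ± 0.13, adjusted p = 0.000575 for BO-112 against DMXAA, -0.49 ± 0.13, adjusted p = 0.197 for both agents against BO-112 and 0.37 ± 0.13, adjusted p = 0.132 for both against DMXAA.

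**Figure D2:**
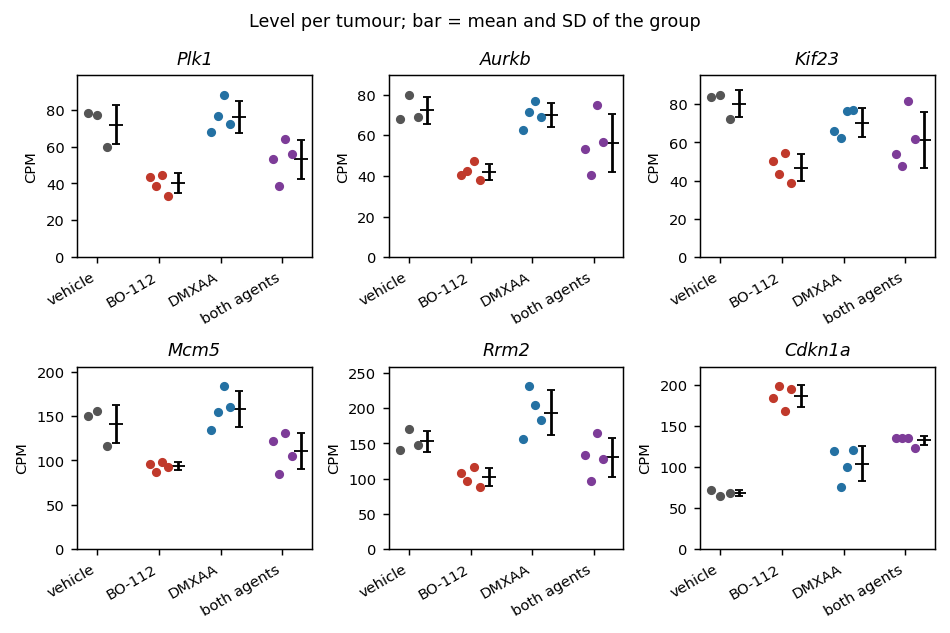
Points are single tumours in CPM on axes that start at 0, and the bar beside each group gives its mean and SD (n = 3 for vehicle, 4 for the others). Plk1, Aurkb, Kif23, Mcm5 and Rrm2 are lowest with BO-112 and wide with both agents, and Cdkn1a separates vehicle, both agents and BO-112.

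DMXAA alone changed no member past the threshold. By limma 0 of 45 were called, against a background of 1.25% of all genes in either direction. At an unadjusted p under 0.05 there was 1 member, and 18.1% of all genes. With limma-voom 0 members were called, where 77 of all genes were higher and 16 lower. The median log2 fold change was 0.16 over the S phase members and -0.02 over the G2/M members, beside 0.01 over all genes. Directions were not stable: 17 members changed sign without DMXAA 2 and 3, and 10 with scaling by total count, which moved the median of all genes to -0.11. Only 16 of 45 kept their sign in all 25 other analyses, and Birc5 (0.60) and Cdk1 (0.32) were among those that changed. The member nearest the threshold was Cdkn1a. It was called, alone, without DMXAA 2, without DMXAA 2 and 3, and with library weights. The 95% intervals of the changes of Plk1 and Mcm5 with DMXAA, -0.27 to 0.45 and -0.15 to 0.49, rest on the spread shared by all 15 tumours.

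The DMXAA tumours varied widely, and levels in DMXAA 2 and DMXAA 3 differed from the others along transcript length, across all genes as well as the members. Against the mean of the other 3, Birc5 was 1.67 and Ube2c 1.28 higher in DMXAA 2 on the log2 scale, while Kif20a was -2.09 and Foxm1 -1.10. Of the 14 members with a longest coding transcript under 2500 bases 12 were higher in DMXAA 2, with a median of 0.36. Of the 19 members of at least 3500 bases 8 were higher, with a median of -0.19. Of the 12 members between, Birc5 among them, 8 were higher, with a median of 0.14. The long Cdk1 was 0.66 higher, while the short Cdkn1a was -0.58. Over all genes the same shares were 65.8% of short genes (median 0.39) and 27.3% of long ones (median -0.37). Among genes above 4 log2 CPM they were 81.6% (median 0.56) and 25.3% (median -0.36). In DMXAA 3, against the mean of DMXAA 1 and 4, 13 of the 14 short members were higher (median 0.38) and 12 of the 19 long ones (median 0.09), beside 66.7% and 23.4% over all genes. Among genes above 4 log2 CPM these shares were 87.8% and 23.4%. Ube2c was 0.74, Birc5 0.73 and Ccnb2 0.66 higher in DMXAA 3, while Mki67 was -0.70 and Cenpf -0.37.

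**Figure D3:**
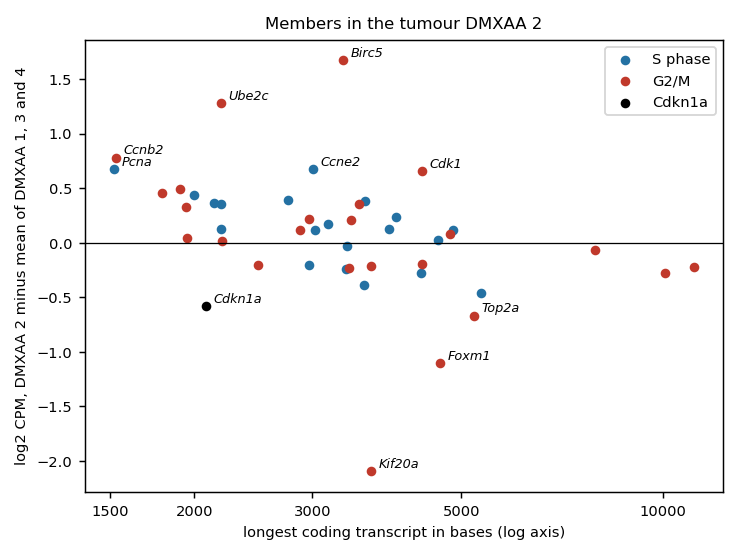
Each point is a member, placed by the length of its longest coding transcript (log axis) and by log2 CPM in DMXAA 2 minus the mean of DMXAA 1, 3 and 4. Most short members, such as Ccnb2 and Pcna, lie above 0, and Kif20a and Foxm1 lie far below it.

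With both agents the medians of the members lay between vehicle and BO-112. Against vehicle only Cdkn1a of the 45 was called by limma, among 2.49% of all genes that rose. No member fell past the threshold, where 0.181% of all genes did. At an unadjusted p under 0.05 there were 10 members, Cdkn1a included, and 11.5% of all genes. The median was -0.24 over the S phase members and -0.26 over the G2/M members, and 44 of 45 changes were negative, Cdkn1a being the exception. The changes of Plk1 (-0.45 ± 0.17, adjusted p = 0.252), Kif23 (-0.42 ± 0.17, adjusted p = 0.312) and Mcm5 (-0.36 ± 0.15, adjusted p = 0.345) did not pass. All 4 tumours lay below all 3 vehicle tumours for 1 S phase member, E2f1, and 1 G2/M member, Ccnb2, against 6.58% of all genes. With library weights 9 members were called, 5 S phase and 3 G2/M members being lower. In that fit 1080 of all genes rose and 323 fell, in place of 441 and 32.

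The spread within this group was wide for the members. The median SD over tumours on the log2 scale was 0.30 for the G2/M and 0.25 for the S phase members, while genes above 4 log2 CPM had a median of 0.13. With BO-112 the same values were 0.14, 0.10 and 0.10. Averaged over the S phase members, the 4 tumours given both agents stood at -0.15, -0.46, 0.06 and -0.36 relative to the vehicle mean, and over the G2/M members at -0.34, -0.59, 0.07 and -0.26. Number 2 was thus as low as BO-112 tumours and number 3 as high as vehicle. Cdkn1a did not share this spread, with an SD of 0.07 in the same 4 tumours.

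**Figure D4:**
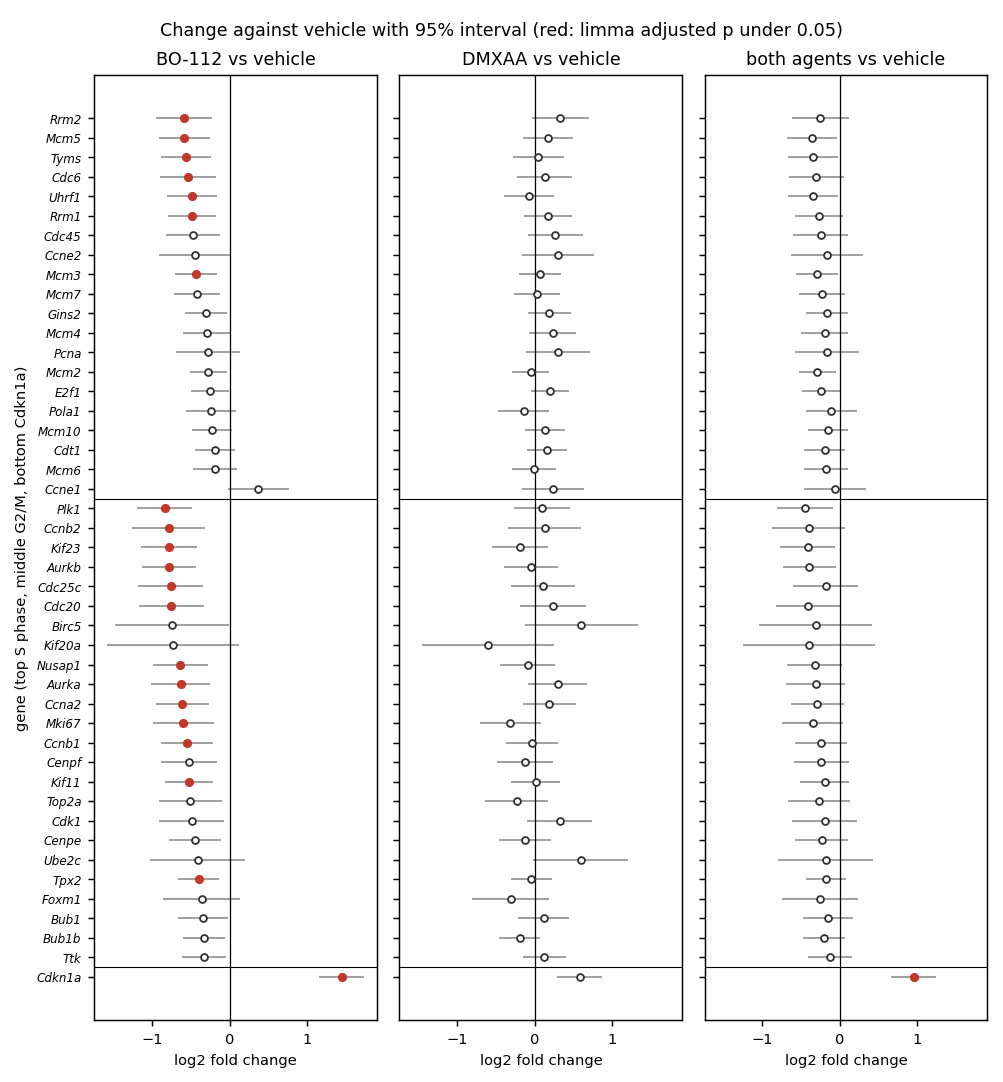
Log2 fold changes against vehicle with 95% intervals for the 45 members, red where limma's adjusted p is under 0.05. BO-112 has 21 red points, DMXAA 0, and both agents 1, Cdkn1a; the 3 panels share the same vehicle tumours.

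Adding DMXAA to BO-112 gave no call. By limma 0 of 45 members passed between both agents and BO-112 alone, with a background of 0.0% of all genes, 9 members and 1690 of all genes at an unadjusted p under 0.05, and limma-voom also called 0 members. The median difference was 0.14 over the S phase and 0.31 over the G2/M members, and 41 of 45 differences were positive. The 9 included Cdc25c (0.58 ± 0.18, adjusted p = 0.305), Aurkb (0.39 ± 0.15, adjusted p = 0.423) and Plk1 (0.39 ± 0.16, adjusted p = 0.437), all higher with both agents, and Ccne1 (-0.43 ± 0.17, adjusted p = 0.441) and Cdkn1a, both lower. Cdkn1a was called, as the one member, when only these groups were fitted, with library weights, without DMXAA 2, and without DMXAA 2 and 3. Other genes were called in these fits too, 51 higher and 311 lower over all genes when only these groups were fitted.

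Against DMXAA alone, both agents also gave 0 calls by limma, with a background of 0.886%. With limma-voom 0 members were called as well, where 112 of all genes were higher and 24 lower. However, 25 of 45 members had an unadjusted p under 0.05, as had 23.9% of all genes. The medians were -0.38 for S phase and -0.24 for G2/M. E2f1 came nearest (-0.45 ± 0.11, adjusted p = 0.0621), followed by Mcm5 (-0.53 ± 0.14, adjusted p = 0.0795). The count was 18 without DMXAA 1, 7 without DMXAA 4 and 3 without tumour 3 of the group given both agents, and 1 was called with the length trend removed. Over all genes, 979 were higher and 786 lower without DMXAA 1, and 859 and 645 without DMXAA 4. Without tumour 3 of both agents these were 191 and 43, and in the fit reported above 127 and 30.

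The single agents differed for members of both phases. In BO-112 against DMXAA, 16 of 20 S phase and 17 of 24 G2/M members were lower with BO-112, with a background of 10.2% of all genes lower. Cdkn1a was higher, where 11.2% of all genes were. The medians were -0.50 and -0.54, beside -0.05 over all genes. The smallest adjusted p among the lower members belonged to Plk1 (-0.93 ± 0.16, adjusted p = 0.00121), Rrm2 (-0.92 ± 0.16, adjusted p = 0.00152), Aurka (-0.93 ± 0.17, adjusted p = 0.00195) and Cdc20 (-0.99 ± 0.18, adjusted p = 0.00258). All BO-112 tumours lay below all DMXAA tumours for 16 S phase and 17 G2/M members, against 10.5% of all genes. The members not called were Mcm2, Mcm6, Pola1 and Ccne1 of S phase, and Mki67, Cenpe, Cenpf, Top2a, Bub1b, Kif20a and Foxm1 of G2/M. The count was 34 in all, 22 without BO-112 4, 21 without DMXAA 3, 21 when only these groups were fitted, 20 without DMXAA 2 and 3 and 11 without the 4 muscle-rich tumours. Lower genes over the whole table numbered 1807, then 748 without DMXAA 3, 451 with these groups alone and 214 without the muscle-rich tumours.

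The interaction asks whether DMXAA has another effect in the presence of BO-112 than on its own, and is the difference between both agents and BO-112 minus that between DMXAA and vehicle. It was called for 1 of 45 members, Cdkn1a, at -1.07 ± 0.19, adjusted p = 0.0154. Among all genes 1.15% were called lower and 0.198% higher. The Cdkn1a call was lost with scaling by total count (-0.85, adjusted p = 0.116) and without the 4 muscle-rich tumours (-0.94, adjusted p = 0.156), with the direction kept. The median was 0.02 over the S phase and 0.33 over the G2/M members, none of which was called. At an unadjusted p under 0.05 there were 4 members, Cdkn1a included, and 14.7% of all genes, with Kif23 at 0.56 ± 0.23, adjusted p = 0.275 and Ccne1 at -0.66 ± 0.25, adjusted p = 0.243.

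The balance of G2/M over S phase expression is given for each tumour. The mean log2 CPM of the 24 G2/M members minus that of the 20 S phase members was 0.28, 0.26 and 0.28 in the vehicle tumours. It was 0.05, 0.04, 0.09 and -0.01 with BO-112, 0.19, 0.11, 0.13 and 0.21 with DMXAA, and 0.08, 0.15, 0.29 and 0.38 with both agents. The BO-112 tumours were lowest, did not overlap with vehicle or DMXAA, and overlapped with both agents in tumour 1 of that group. The DMXAA tumours also all lay below vehicle. These are descriptions, with no test.

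**Figure D5:**
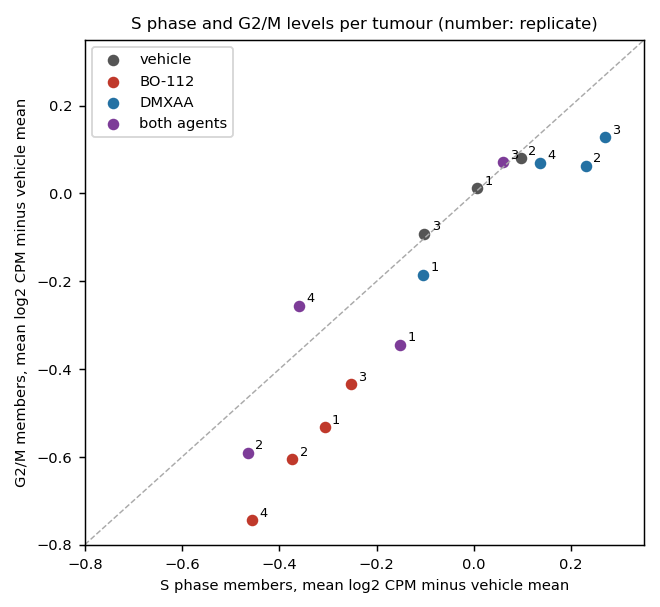
Each point is a tumour, placed by its mean over the S phase members and over the G2/M members, in log2 CPM minus the vehicle mean; the dashed line marks equal change. The BO-112 and the DMXAA tumours all lie below the line, the DMXAA tumours closer to it, and the tumours given both agents run from near BO-112 to near vehicle.

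Other genes of the same pathways were read from further lists. The counts below are for BO-112 against vehicle, where 4.31% of all genes fell and 7.64% rose. Among 37 more replication genes 5 fell and none rose, with a median of -0.39. Tk1, thymidine kinase 1, stood at 90.0, 84.1 and 71.5 CPM with vehicle, 40.3, 37.4, 44.9 and 31.0 with BO-112, 70.8, 112, 103 and 75.1 with DMXAA and 58.7, 42.3, 71.3 and 54.4 with both agents, a log2 fold change of -1.10 ± 0.19, adjusted p = 0.00148. Pold1 (-0.44 ± 0.12, adjusted p = 0.0277) and Pola2 (-0.44 ± 0.12, adjusted p = 0.0298), of the replicative polymerases, fell as well. Among 50 more mitotic genes 25 fell and none rose, with a median of -0.57. Ccnf, cyclin F, stood at 67.1, 69.7 and 65.5 CPM with vehicle, 34.8, 37.8, 36.9 and 26.6 with BO-112, 59.2, 64.9, 76.5 and 66.7 with DMXAA and 50.0, 42.2, 63.1 and 47.8 with both agents, a change of -0.999 ± 0.15, adjusted p = 0.000376. Ncapd2, of condensin (-0.93 ± 0.15, adjusted p = 0.000924), and Cdc25b, a mitotic phosphatase (-0.73 ± 0.14, adjusted p = 0.00280), fell as well. In both lists the named genes had every BO-112 tumour below every vehicle tumour, as had 16.8% of all genes. They were named for their small adjusted p in this same comparison, so the separation is no further support.

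Of 19 regulators of G1, 1 rose and 2 fell with BO-112, beside 7.64% and 4.31% of all genes. Ccnd2, cyclin D2, stood at 164, 164 and 141 CPM with vehicle, 259, 293, 249 and 237 with BO-112, 173, 120.0, 139 and 174 with DMXAA and 183, 216, 192 and 173 with both agents, a change of 0.73 ± 0.14, adjusted p = 0.00236. E2f2, an activating E2F, stood at 29.6, 33.2 and 30.6 CPM with vehicle, 17.6, 15.3, 16.2 and 10.6 with BO-112, 29.5, 25.4, 27.7 and 19.6 with DMXAA and 18.9, 19.7, 23.2 and 18.9 with both agents, a change of -1.08 ± 0.17, adjusted p = 0.000693. E2f7, a repressing E2F, fell as well (-0.58 ± 0.17, adjusted p = 0.0374). Of 7 other inhibitors of cyclin-dependent kinases or their phosphatases, 2 fell and none rose. Cdkn2c, which encodes p18, changed by -1.10 ± 0.19, adjusted p = 0.00131, and Cdkn3, a phosphatase of CDK2, by -0.87 ± 0.26, adjusted p = 0.0440. Cdkn3 is itself a gene of dividing cells.

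Of 24 p53 target genes 3 rose and 1 fell with BO-112, with a median of 0.15, beside 7.64% and 4.31% of all genes. Nothing is read about either list as a whole from such small counts. Mdm2, the ubiquitin ligase of p53, stood at 96.3, 107 and 90.5 CPM with vehicle, 236, 228, 219 and 236 with BO-112, 125, 80.3, 91.2 and 126 with DMXAA and 181, 171, 144 and 162 with both agents, a change of 1.23 ± 0.15, adjusted p = 5.88e-05. Plk2 stood at 114, 170.1 and 143 CPM with vehicle, 318, 251, 248 and 314 with BO-112, 129, 121, 161 and 178 with DMXAA and 185, 217, 190.0 and 216 with both agents, a change of 1.00 ± 0.16, adjusted p = 0.000806. Fas, a death receptor, changed by 1.06 ± 0.23, adjusted p = 0.00680. Sesn1, a stress-induced regulator of growth signalling, stood at 34.6, 28.4 and 31.2 CPM with vehicle, 13.2, 15.7, 16.9 and 12.6 with BO-112, 29.5, 44.7, 32.7 and 26.6 with DMXAA and 21.1, 16.8, 21.7 and 22.6 with both agents, a change of -1.11 ± 0.17, adjusted p = 0.000585. The BO-112 tumours were all above vehicle for Mdm2, Plk2 and Fas and all below for Sesn1. These genes too were named for their small adjusted p in this comparison, so the separation is no further support. With both agents Mdm2 alone of the list was called (0.74 ± 0.15, adjusted p = 0.0104).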

How the data were processed

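RNA was sequenced from 15 tumours. The submitters' processing notes name STAR, edgeR, limma and the genome build mm39, and versions are not given in the sources used here. The values the authors deposited are log2 CPM with 0.5 reads added and a scaling factor (0.85 to 1.08) in each library size. Whole reads were recovered for 100% of values (tolerance 1e-06). The 15 columns of a table without sample names were not used. Symbols and lengths came from GENCODE M21 (GRCm38) for 17636 genes, and no coordinates were carried between builds. A linear model with 1 mean per group was fitted with limma 3.58.1 in R 4.3.3, with an intensity trend and robust moderation. It gave 6 pairwise comparisons and the interaction. It was tested on simulated data. CPM is 2 to the power of the deposited value, and errors are SE of the fit. Members, lists and tests were chosen with earlier results of these data known. Levels in every tumour are given for Cdkn1a, the 8 S phase and 8 G2/M members with the smallest adjusted p with BO-112 and any member called elsewhere, and for the rest to complete the list. From other lists the 3 genes with the smallest adjusted p in each direction were named. Alternatives were other scalings, a filter of 1 CPM in 4 libraries, limma-voom on recovered reads, a replicate block, fits to the compared groups, library weights, removal of a length trend and leaving out libraries.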

Additional observations from a re-analysis of the deposited data

Results flagged for a closer look

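Single tumours stood apart from the rest of their group for 7 of 141 combinations of a member, or the mean over the members of a phase, with a group of 4, where chance gives about 1 in 20. With BO-112, Uhrf1 was low in tumour 4 (102.1 CPM). With DMXAA, Ttk was low in tumour 1 (23.37 CPM) and Kif20a in tumour 2 (14.9 CPM). With both agents, tumour 3 was high for Mcm2 (167.9 CPM), Pola1 (70.51 CPM) and Ttk (28.91 CPM), and tumour 4 was low for Cdkn1a (123.3 CPM).

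The effect of DMXAA on Cdkn1a differed by whether BO-112 was present, with an interaction of -1.068 on the log2 scale (limma adjusted p = 0.0154).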

How the results depend on the processing

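Members called for BO-112 against vehicle numbered 21, and 35 with scaling by total count, 38 with array quality weights, 41 when the 2 groups were fitted alone, 2 without the 4 muscle-rich tumours, 34 without DMXAA 2 and 3, and 4 to 30 when single tumours were left out. Scaling by total count moved the median of all genes in that comparison to -0.20. For DMXAA against vehicle the count of 0 became 1 with array weights and without DMXAA 2 and 3, and was 0 to 1 with single tumours left out. For both agents against vehicle the count of 1 became 9 with array weights. For both agents against BO-112 the count of 0 became 1 in the fit of the groups alone, with array weights and without DMXAA 2 and 3, and was 0 to 1 with single tumours left out. For both agents against DMXAA the count of 0 became 1 with the length trend removed, and was 0 to 18 with single tumours left out. For BO-112 against DMXAA the count of 34 became 21 in the fit of the groups alone, 11 without the muscle-rich tumours and 20 without DMXAA 2 and 3, and was 21 to 34 with single tumours left out. The interaction lost its 1 call, leaving 0, with scaling by total count and without the muscle-rich tumours, where the Cdkn1a value was -0.85 and -0.94 in place of -1.07. Calls over all genes moved too: with array quality weights, 2336 genes fell with BO-112 against vehicle, in place of 763. The cause of these shifts was not tested.

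With the replicate block 13 members were called for BO-112 against vehicle. Tumours that share a number share nothing else in the labels, and the deviations of 21 such pairs from their group means correlated at 0.02 on average (63 other pairs: -0.01), so the numbers were not used as pairs.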
